A study of Mus musculus with 47 samples.

Results

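The 10 genes described here are expressed by the retinal pigment epithelium, the pigmented cell layer behind the photoreceptors. They were chosen by name from genes whose daily swing or age difference was already known in these libraries, and each was found in the deposited table, so 10 of 57180 genes are members. Retinas came from aged C57BL/6 mice, 20 months old, and from young C57BL/6 mice, 6 weeks old, all kept on 12 h of light and 12 h of dark. Mice were taken at zeitgeber times (ZT, hours after lights on) 2, 6, 10, 14, 18 and 22, of which the last 3 fall in the dark. The retina was dissected from the right eye of each mouse under dim red light, and polyadenylated RNA was sequenced. There were 4 libraries per age and time, except 3 for aged mice at ZT18, so 23 aged and 24 young libraries entered. Levels are the authors' RPKM, which scales reads to exon length in kilobases and to library size in M (mega) reads, and the sex of the mice is not given in the sources used here.

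In the visual cycle, light turns the retinal bound to rhodopsin in the photoreceptors into its all-trans form, and the pigment epithelium turns it back. LRAT esterifies all-trans retinol, RPE65 isomerizes the ester, and RDH5 oxidizes the product to the retinal that photoreceptors take up again. RGR and RRH (peropsin) are opsin-like proteins of this layer that bind retinal, RGR also being made in Müller glia. STRA6 takes up retinol from retinol-binding protein, which transthyretin (TTR) carries in blood, BEST1 is a chloride channel of the basal membrane, PTGDS is a secreted prostaglandin D synthase and lipid carrier, and SERPINE3 belongs to the serpin family of protease inhibitors.

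Promoters of 3 members are shown because they hold TAATCC, a core bound by the homeodomain factors OTX2 and CRX, and because Rpe65 and Rgr were among the most closely correlated members, whereas no pair with Best1 passed. Each is the 250 bases before the gene's start in RefSeq (build GRCm38.p6, an earlier build than that of the deposited table), 5′ to 3′ on the gene's strand, with capitals marking TAATCC or, in Rpe65, its reverse complement.
Rpe65, chr3:159598931-159599180, plus strand: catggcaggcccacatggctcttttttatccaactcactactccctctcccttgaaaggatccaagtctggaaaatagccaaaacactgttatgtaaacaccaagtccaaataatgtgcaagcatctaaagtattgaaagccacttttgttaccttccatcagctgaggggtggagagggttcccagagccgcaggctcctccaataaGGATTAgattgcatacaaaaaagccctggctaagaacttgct
Rgr, chr14:37049015-37049264, minus strand: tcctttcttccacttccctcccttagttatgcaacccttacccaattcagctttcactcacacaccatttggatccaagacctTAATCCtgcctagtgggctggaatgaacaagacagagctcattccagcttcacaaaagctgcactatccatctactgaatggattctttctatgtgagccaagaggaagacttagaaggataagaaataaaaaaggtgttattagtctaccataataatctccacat
Best1, chr19:10001634-10001883, minus strand: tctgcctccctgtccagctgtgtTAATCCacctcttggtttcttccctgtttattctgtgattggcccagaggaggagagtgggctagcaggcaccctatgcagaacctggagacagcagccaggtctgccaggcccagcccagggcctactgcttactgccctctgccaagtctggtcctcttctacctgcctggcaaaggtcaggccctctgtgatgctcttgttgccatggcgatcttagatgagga
The match begins 42 bases before the start in Rpe65, 167 bases before it in Rgr and 227 bases before it in Best1. Of 9 members with a promoter in the RefSeq table, 3 held TAATCC on either strand, as did 6.25% of all 32851 promoters of this length. The E-box CACGTG was in none of the 9 and in 6.02% of all promoters. CATGTG was in Rpe65 and in 12.3% of all, and AGGTCA was in Best1 and in 14% of all, both strands being searched and neither motif overlapping TAATCC by its letters. A match describes the letters only.

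Sequencing totals, recovered from the smallest steps of the RPKM values, ran between 32.0 M and 55.5 M, the median being 37.0 M in aged and 37.2 M in young libraries. The 10 rod genes of a fixed list summed to 17958 to 30666 RPKM in aged and 18486 to 27357 RPKM in young libraries. Of the pigment epithelium's other markers 14 of 18 passed the filter on low values (at least 0.5 RPKM in at least 12 libraries), but only 5 of 10 melanin genes did, and Tyr, the key enzyme of melanin synthesis, reached 0.64 RPKM at most. In bulk retina, fewer cells of a type and less RNA per cell cannot be told apart. Young ZT10 replicate 4 and aged ZT6 replicate 3 stood apart from the rest, with median correlations of 0.868 and 0.905 with the other libraries, where the next lowest was 0.968. Age calls that change when both are left out are given with and without them. The share of all genes passing without both is not given here for any test. Leaving out any 1 library, 568 to 1518 genes had an adjusted p under 0.05 for age over all times, against 649 with all libraries. In the dark these counts were 179 to 451, against 251. Added calls without both libraries therefore have no background beside them.

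Ptgds and Ttr had the highest levels per length of exon. Ptgds averaged 35.3 ± 27.8 RPKM in aged and 22.8 ± 15.5 RPKM in young libraries (SD, n = 23 and 24, as for the next values). Ttr averaged 32.1 ± 31.3 RPKM in aged and 18.4 ± 14.1 RPKM in young libraries. Rgr followed with 11.5 ± 11.2 RPKM in aged and 5.80 ± 4.59 RPKM in young libraries, and Rpe65 with 5.74 ± 6.10 RPKM in aged and 2.96 ± 2.75 RPKM in young libraries. The rest averaged 0.317 RPKM (Best1) to 2.87 RPKM (Serpine3) in aged libraries and 0.272 RPKM (Best1) to 1.66 RPKM (Rrh) in young libraries. Means of neighbours in this order, Ptgds and Ttr included, did not differ beyond their spread between libraries. That spread includes the daily swing and does not compare genes within a library. Compared within libraries, Rgr was above Rpe65 in every one, with a lowest ratio of 1.56 in a young dark library. Ttr was at least 4.59 times Rpe65 in the dark, where Rgr was at most 2.68 times, so Ttr was above Rgr in every dark library. The same held in young light libraries (at least 4.84 against at most 3.16), while in aged light libraries the ratios overlapped. Best1 was represented by 0 to 64 reads per library and did not pass the filter, so 9 of the 10 members were tested. It had 0 reads in aged ZT6 replicate 3 and in young ZT10 replicate 4, the libraries that stood apart, which allows up to 0.0274 and 0.0210 RPKM (3 reads each, counting error only), although none of 5699 genes present at 5 RPKM or more in the other 45 libraries was at 0 in either.

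**Figure D1:**
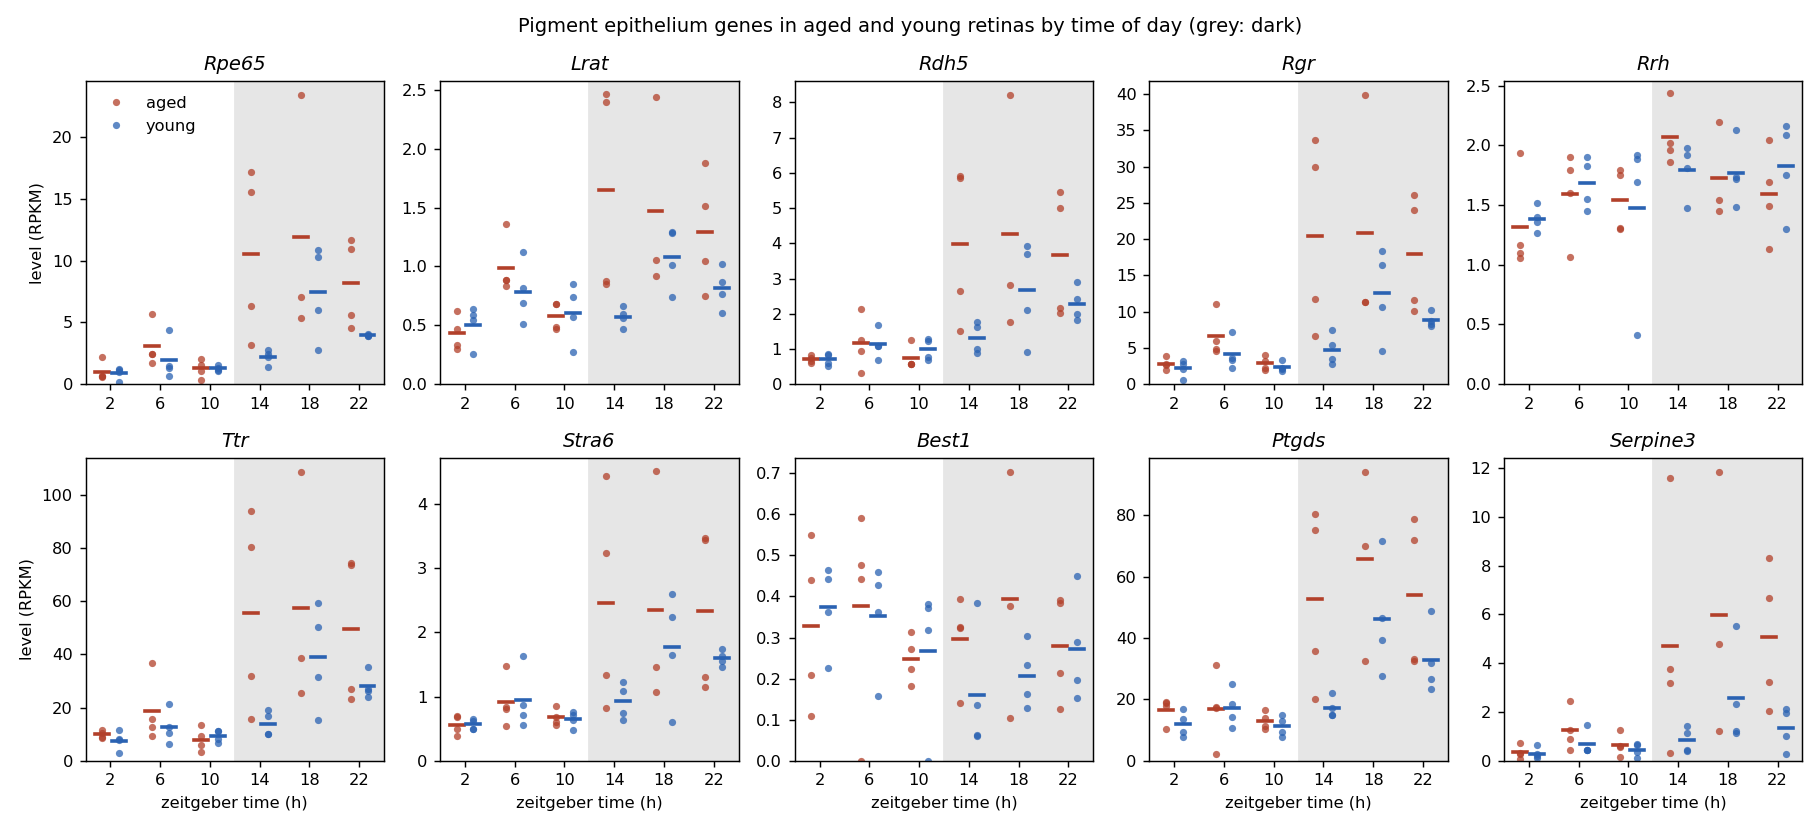
Level (RPKM, linear axes from 0) of the 10 genes against zeitgeber time, with 1 point per library, aged left of young, and bars at group means; grey marks the dark. In 7 panels the dark points lie mostly above the light ones, and aged libraries spread most at ZT14 and ZT18, where Rpe65 ran from 3.18 to 23.4 RPKM.

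Rpe65, the isomerase, was on average higher in the dark than in the light at both ages, but the phases overlapped. Above the highest light library of their age were 7 of 11 aged and 3 of 12 young dark libraries. In aged retinas it had 2.2, 0.665, 0.569 and 0.643 RPKM at ZT2, 5.64, 2.42, 2.47 and 1.69 at ZT6 and 0.363, 2.05, 1.58 and 1.09 at ZT10. In the dark, aged retinas had 3.18, 6.33, 15.5 and 17.1 RPKM at ZT14, 7.07, 23.4 and 5.31 at ZT18 and 11.7, 11.0, 4.56 and 5.58 at ZT22. Aged ZT18 replicate 2, at 23.4 RPKM, was the highest of all, and it was also the highest library for Rdh5, Rgr, Ttr, Stra6, Ptgds and Serpine3. Young retinas had 0.209, 1.16, 1.21 and 1.02 RPKM at ZT2, 1.43, 4.39, 1.29 and 0.694 at ZT6 and 1.05, 1.32, 1.59 and 1.15 at ZT10. In the dark, young retinas had 2.42, 2.77, 1.39 and 2.19 RPKM at ZT14, 10.2, 2.77, 5.98 and 10.8 at ZT18 and 3.92, 4.01, 3.92 and 4.08 at ZT22. At ZT14 and at ZT22 every aged library lay above every young one, and at the other 4 times the ages overlapped.

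The daily swing is given as a description with no test, since it was one of the values by which members were chosen. A 24 h cosine was fitted to log2(RPKM + 0.5), a scale that understates the change of low genes. The fitted peak of Rpe65 was 6.91-fold over its trough in aged retinas and 3.88-fold in young retinas, as the plot of amplitudes shows. Ptgds swung 6.32-fold in aged and 3.24-fold in young retinas, and Serpine3 5.69-fold in aged and 2.56-fold in young retinas. Ttr swung 6.08-fold in aged and 3.71-fold in young retinas, and Rgr 5.97-fold in aged and 3.77-fold in young retinas. Rdh5 swung 4.32-fold in aged and 2.10-fold in young retinas, and Stra6 2.68-fold in aged and 1.83-fold in young retinas. Lrat, with 1.83-fold in aged and 1.27-fold in young retinas, and Rrh, with 1.31-fold in aged and 1.18-fold in young retinas, swung least. The sizes depended on the scale of low values: by voom on the recovered reads, in log2 reads per M, Serpine3 swung 14.2-fold in aged and 6.31-fold in young retinas and Rpe65 12.1-fold in aged and 7.18-fold in young retinas, so Serpine3 had the largest fold in aged retinas. In that fit Rdh5 (7.57-fold) and Stra6 (4.16-fold) also moved by over 1.5 times in aged retinas, and with a pseudocount of 0.1 Serpine3 swung 8.88-fold in aged and 3.88-fold in young retinas. Fitted peaks of the 8 tested members other than Rrh lay at ZT16.9 to ZT18.4 in aged and at ZT18.2 to ZT19.2 in young retinas, in the middle of the dark, with standard errors of 0.65 to 1.96 h. For Rrh the peak was poorly fixed, at ZT14.8 ± 1.42 h in aged and ZT18.4 ± 2.85 h in young retinas.

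**Figure D2:**
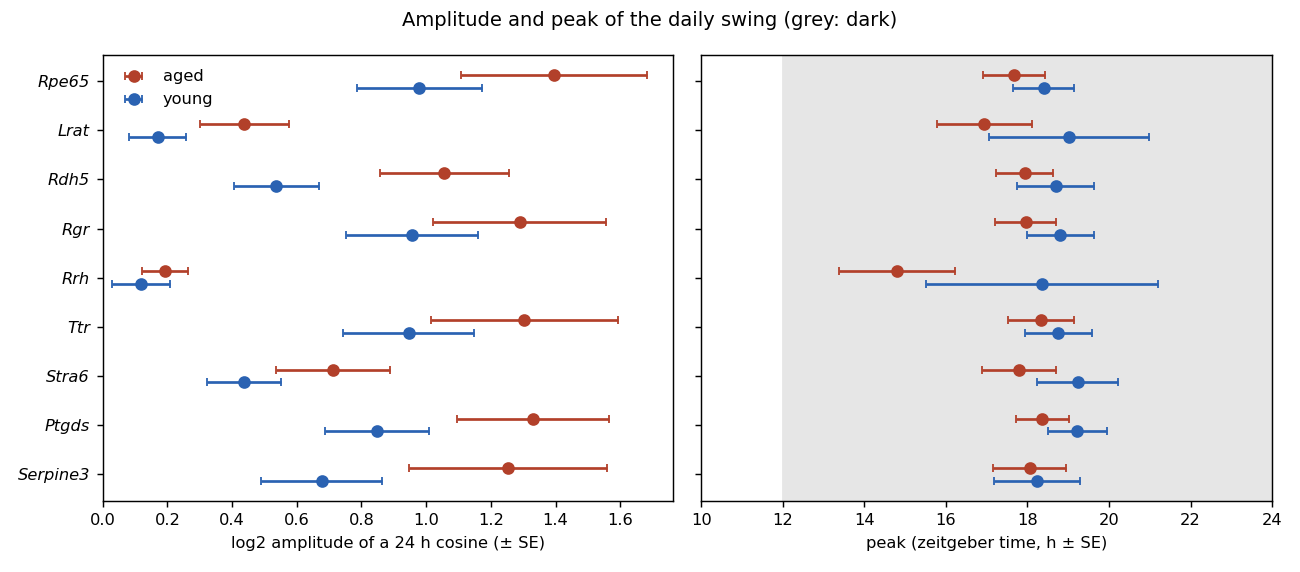
Fitted log2 amplitude (left; bars, SE) and peak time (right; h, bars, SE; grey, dark) of the daily swing of the 9 tested members, aged above young. Every aged amplitude lies above its young counterpart, from 0.19 against 0.12 for Rrh to 1.39 against 0.98 for Rpe65, with error bars that overlap or nearly so for several genes.

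The larger aged amplitudes did not pass a test of the difference itself. For none of the 9 tested members did the cosine differ between ages at an adjusted p under 0.05 (limma, Benjamini-Hochberg over 15321 genes; adjusted p 0.606 to 0.760), with 0 of 9 at an unadjusted p under 0.05 and 0 of 9 by voom on the recovered reads. Over all genes 0.00653% passed. The dark minus light change was 2.21 ± 0.28 in aged and 1.36 ± 0.27 in young retinas for Rpe65 (log2 ± SE). This change was larger in aged than in young retinas by 1.02 for Serpine3, 0.85 for Rpe65, 0.83 for Rdh5, 0.73 for Ptgds, 0.71 for Ttr, 0.68 for Rgr, 0.49 for Lrat and 0.47 for Stra6. None of the 9 passed (adjusted p 0.648 to 0.996; 0 of 9 by voom), against 0% of all genes. At an unadjusted p under 0.05 were 4 of 9, beside 1131 of 15321 genes. The age by time interaction gave 0 of 9 as well (adjusted p 0.838 to 0.913; 0 of 9 at an unadjusted p under 0.05 and by voom). With array weights, which weight each library by its estimated spread, the dark minus light change was larger in aged retinas by 0.80 for Lrat (adjusted p = 0.0217) and 1.11 for Rdh5 (adjusted p = 0.0489), which passed, and by 1.45 for Rpe65 (adjusted p = 0.0542). Lrat (adjusted p = 0.0211) and Rdh5 (adjusted p = 0.0416) then passed the interaction too. How far these weighted calls rest on single libraries was not tested. The share of all genes passing with array weights is not given here for any test.

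Over all times together, Serpine3 was higher in aged retinas, as was Rgr, which was chosen for it. Serpine3 had a median of 1.26 RPKM (0.0805 to 11.8) in aged and 0.645 RPKM (0.0963 to 5.54) in young libraries, so the ages overlapped over most of their range, and it rose by 0.79 ± 0.24 on the log2 scale (limma, adjusted p = 0.0407). Rgr had a median of 6.60 RPKM (1.94 to 39.9) in aged and 3.51 RPKM (0.640 to 18.4) in young libraries. Its log2 difference of 0.76 ± 0.19 was known when members were chosen and is given without a test. The other members also came from genes with a known swing or age difference, so their tests are not independent of that choice. Of the other 8 tested members Serpine3 alone passed, where 2.41% of all tested genes rose, 4.24% changed in either direction, and 0.424% rose with a fold over 1.5. Log2 differences of those that did not pass were 0.63 ± 0.21 for Rpe65 (adjusted p = 0.073), 0.56 ± 0.22 for Ttr (adjusted p = 0.159), 0.47 ± 0.20 for Ptgds (adjusted p = 0.217), 0.30 ± 0.16 for Rdh5, 0.28 ± 0.10 for Lrat, 0.24 ± 0.14 for Stra6 and -0.01 ± 0.08 for Rrh. Without the pair of libraries that stood apart, Rpe65 (0.65, adjusted p = 0.0313), Ttr (0.64, adjusted p = 0.0400) and Ptgds (0.63, adjusted p = 0.0046) passed too. Rpe65 also passed by voom (0.88, adjusted p = 0.0333) and with the melanin level as a covariate (0.58, adjusted p = 0.0482), and Ptgds with array weights (0.57, adjusted p = 0.0144). Serpine3's call ended with a pseudocount of 0.1, without the filter and with a lens covariate (adjusted p at most 0.0876). It also rested on single libraries and ended, with an adjusted p of at most 0.0805, without any of aged ZT2 replicate 2, ZT6 replicate 1, ZT10 replicate 2, ZT14 replicates 2, 3 and 4, ZT18 replicates 1 and 2 and ZT22 replicates 1 and 2, or of young ZT2 replicate 1, ZT6 replicates 1, 2 and 3, ZT14 replicates 1, 3 and 4, ZT18 replicates 2 and 3 and ZT22 replicates 2 and 3. Rpe65 passed without aged ZT10 replicate 1, aged ZT18 replicate 3, young ZT6 replicate 2 or young ZT10 replicate 4 (adjusted p 0.0351 to 0.0487), and Ptgds without aged ZT6 replicate 3 (0.60, adjusted p = 0.0136).

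In the dark samples Serpine3, Rpe65 and Lrat rose with age. Serpine3 had 0.325, 3.21, 11.6 and 3.77 RPKM in aged retinas at ZT14, 4.80, 11.8 and 1.23 at ZT18 and 6.68, 8.30, 3.22 and 2.03 at ZT22. Young retinas had 1.12, 1.43, 0.393 and 0.453 RPKM of Serpine3 at ZT14, 2.33, 1.15, 1.23 and 5.54 at ZT18 and 2.12, 1.01, 0.287 and 1.96 at ZT22. Aged libraries were mostly the higher ones, but at each of these times the ages overlapped, and aged ZT14 replicate 1 was below all 4 young libraries of that time. Lrat had 0.875, 0.850, 2.40 and 2.46 RPKM in aged retinas at ZT14, 1.05, 2.44 and 0.920 at ZT18 and 1.51, 1.88, 0.745 and 1.05 at ZT22. Young retinas had 0.668, 0.561, 0.599 and 0.470 RPKM of Lrat at ZT14, 1.28, 0.742, 1.01 and 1.29 at ZT18 and 0.865, 0.606, 0.762 and 1.02 at ZT22. At ZT14 every aged library was above every young one for Lrat.

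Over the 3 dark times, Serpine3 rose by 1.30 ± 0.33 (log2 ± SE; limma, adjusted p = 0.0296), Rpe65 by 1.05 ± 0.28 (adjusted p = 0.0376) and Lrat by 0.52 ± 0.14 (adjusted p = 0.0378). Rgr, whose age difference was known beforehand, had a median of 11.8 RPKM (6.60 to 39.9) in aged dark libraries and 8.15 RPKM (2.76 to 18.4) in young dark libraries, a log2 difference of 1.10 ± 0.26. Ttr (0.92 ± 0.30, adjusted p = 0.153), Ptgds (0.84 ± 0.28, adjusted p = 0.164), Rdh5 (0.72 ± 0.22, adjusted p = 0.108) and Stra6 (0.48 ± 0.20, adjusted p = 0.354) did not pass, and Rrh was at -0.01 ± 0.12. Over all genes 1.24% rose in the dark. Members were chosen from genes with a known daily swing or age difference, and these dark libraries enter both. Their adjusted p in the dark are therefore not independent of that choice. In the light none of the 9 passed (log2 -0.11 to 0.42, adjusted p 0.452 to 0.994; 0 of 9 at an unadjusted p under 0.05 and by voom), where 1.25% of all genes rose. That an age difference passed in the dark and not in the light does not show that the phases differ: the test of that difference is the dark minus light change between ages above, which no member passed.

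These dark calls rested on the setting and on single libraries. With a pseudocount of 0.1, or without the filter, none of Rpe65, Lrat and Serpine3 passed, and by voom Rpe65 alone did, with an adjusted p of at most 0.0848 for Rpe65, 0.0843 for Lrat and 0.0900 for Serpine3. Lrat also lost its call with a lens covariate (adjusted p = 0.0502). Rpe65, Lrat and Serpine3 each lost theirs without any of aged ZT14 replicates 3 and 4, ZT18 replicate 2 and ZT22 replicates 1 and 2, or of young ZT14 replicates 3 and 4, ZT18 replicates 2 and 3 and ZT22 replicates 2 and 3. Rpe65 and Lrat lost theirs also without young ZT22 replicate 1, Rpe65 without young ZT14 replicate 1, Lrat without young ZT14 replicate 2 and Serpine3 without aged ZT18 replicate 1. The adjusted p then reached at most 0.183 for Rpe65, 0.189 for Lrat and 0.142 for Serpine3, each without aged ZT18 replicate 2, where the log2 differences were 0.85, 0.41 and 1.08, and Rgr's was 0.90. Rdh5 passed without aged ZT14 replicate 1 or aged ZT18 replicate 3 (lowest adjusted p = 0.0306), Ttr without aged ZT14 replicate 1 (adjusted p = 0.0412) and Ptgds without aged ZT6 replicate 3 (adjusted p = 0.0295). Without the pair of libraries that stood apart, Rdh5 (adjusted p = 0.0353) and Ptgds (adjusted p = 0.0166) passed beside the others. With array weights Rdh5 (1.14, adjusted p = 0.00011), Ptgds (1.12, adjusted p = 0.00019), Ttr (1.40, adjusted p = 0.00076) and Stra6 (0.85, adjusted p = 0.0014) passed as well, and Rdh5 passed with the melanin covariate (0.70, adjusted p = 0.0318). How far the weighted calls rest on single libraries was not tested, and the share of all genes passing with these weights is not given here.

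**Figure D3:**
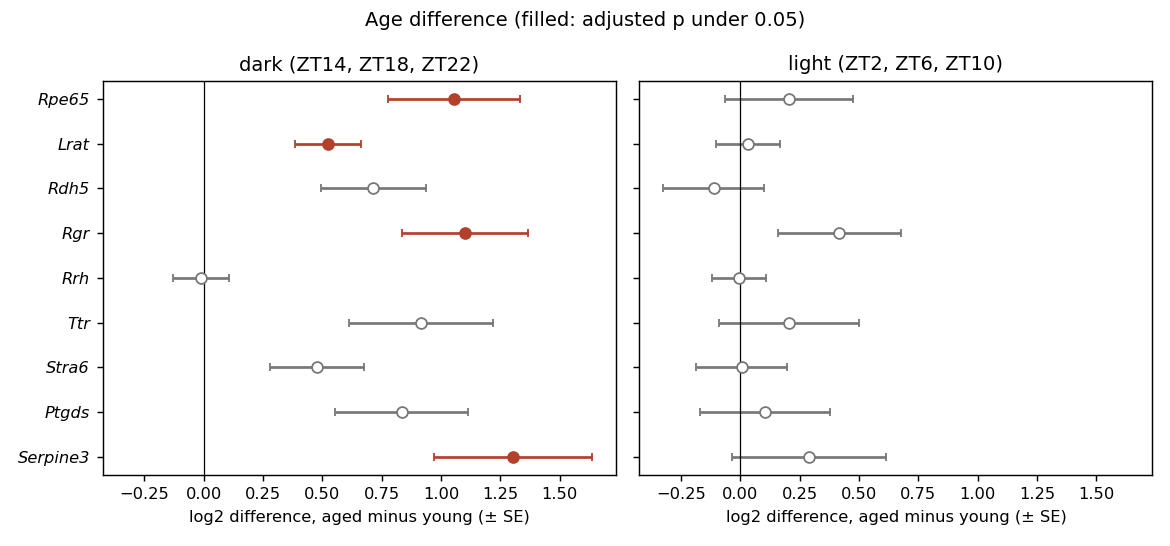
Log2 difference, aged minus young, with SE, in the dark (left) and in the light (right) for the 9 tested members; filled points have an adjusted p under 0.05. In the dark 8 points lie right of 0, up to 1.30 for Serpine3, with Rrh at -0.01; in the light they lie between -0.11 and 0.42.

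At single times no member passed (limma, adjusted over all genes within each time). The nearest was ZT14, with 8 of 9 at an unadjusted p under 0.05, beside 837 of 15321 genes, and none passing by voom. The 8 include Rgr, whose age difference was known beforehand. The others were also chosen with a daily swing or age difference known, so this count is not independent of that choice. Log2 differences at ZT14 were 0.16 (Rrh) to 1.81 (Rgr), with a median of 1.40. Without aged ZT14 replicate 1, the lowest aged library at that time for Rpe65, Rgr and Ttr, the difference at ZT14 passed for Rpe65 (2.24, adjusted p = 0.0143), Ttr (2.18, adjusted p = 0.0420) and Lrat (1.08, adjusted p = 0.0258). Rgr had a difference of 2.24 in that fit, and Lrat also passed without aged ZT14 replicate 2 (1.09, adjusted p = 0.0436), without the pair of libraries that stood apart (0.90, adjusted p = 0.0455) and with array weights (0.92, adjusted p = 0.0311). At ZT18, where there were 3 aged libraries, the call depended on the weights: with array weights Serpine3 (2.13), Rpe65 (1.63), Ttr (1.54), Rdh5 (1.50), Stra6 (1.16), Ptgds (1.07) and Lrat (0.83) passed (adjusted p 0.00041 to 0.0104), and Rgr had a difference of 1.70. Without weights the differences of these genes other than Rgr were 0.24 (Stra6) to 0.87 (Serpine3). Leaving out 1 library, the unweighted difference of Rpe65 at ZT18 ran from -0.10 to 0.91. Aged ZT18 replicate 2 was the highest of all libraries for these genes except Lrat. How far the weighted calls rest on that library was not tested, and the share of all genes passing with these weights is not given here. Rpe65 and Lrat were the members with every aged library above every young one at ZT14, a pattern held by 4.95% of tested genes, and at ZT22 Rpe65 alone showed it, beside 2.68% of tested genes. At ZT2, ZT6, ZT10 and ZT18, 0 of 9 were at an unadjusted p under 0.05 and 0 of 9 passed by voom. At ZT22, 1 of 9 was at an unadjusted p under 0.05, beside 633 of 15321 genes, and 0 of 9 passed by voom.

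Markers of other tissues, in lists chosen with earlier results of these data known, moved too. The 5 blood genes (hemoglobins and Alas2, the heme synthesis enzyme of red cells) summed to 74.0 to 823 RPKM, median 315, in aged dark libraries and 33.6 to 294 RPKM, median 55.5, in young dark libraries, and all 5 rose with age in the dark. Their part in the members' age difference was not tested. The 10 melanin genes summed to 3.68 to 10.6 RPKM, median 7.39, in aged dark libraries and 3.84 to 14.2 RPKM, median 6.30, in young dark libraries. In the light they summed to 2.80 to 6.37 RPKM, median 4.88, in aged libraries and 3.68 to 7.24 RPKM, median 4.41, in young libraries, so pigment genes too were higher in the dark by their medians. With the mean melanin level as a covariate, the age difference in the dark was 1.03 for Rpe65 (adjusted p = 0.0076), 1.28 for Serpine3 (adjusted p = 0.0117) and 0.51 for Lrat (adjusted p = 0.0106), close to the values without it. The covariate is a mean of the 5 melanin genes that passed the filter, with low medians of 0.503 RPKM (Rab38) to 1.74 RPKM (Slc24a5). The part of pigment cell content in the members' age difference was not tested beyond this fit. The fitted swing of Rpe65 was smaller in that fit, 3.55-fold in aged and 2.44-fold in young retinas, as was that of Rgr, with 3.14-fold in aged and 2.2-fold in young retinas, and of Serpine3, with 2.58-fold in aged and 2.03-fold in young retinas. Lens crystallins summed to 4.37 to 923 RPKM in aged dark and 1.54 to 1848 RPKM in young dark libraries, and 3 of 12 tested lens genes, Crygb, Crygc and Crygd, fell with age over all times. The part of lens RNA in the members' age difference was not tested beyond a fit with the lens level as a covariate, given with the processing.

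With age and time removed, most members varied together from mouse to mouse. After each library's group mean was removed, Rpe65 and Rgr correlated at r = 0.94 over 47 libraries, Rgr and Ttr at 0.94, and Rpe65 and Ttr at 0.93. Over all 45 pairs the median r was 0.68, and 33 pairs passed at an adjusted p under 0.05 (two-sided permutation within groups, 100000 resamples, Benjamini-Hochberg over 45 pairs), the smallest p these permutations can give being 1e-05. The share of pairs passing among all tested genes is not given here, so these counts have no background beside them. The 28 pairs of the 8 members other than Rrh and Best1, a grouping made after their values were seen, had r of 0.55 to 0.94, median 0.80, and rho of 0.47 to 0.93. All 28 passed (highest adjusted p = 0.00211), and without the 2 libraries farthest from the median r was 0.48 to 0.93. Rrh correlated with the others at 0.10 to 0.55, with 5 of 9 pairs passing, its closest partner being Lrat (r = 0.55, adjusted p = 0.000215). Best1 correlated with the others at 0.02 to 0.27, with 0 of 9 pairs passing, and with so few reads a weak relation was not detectable.

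**Figure D4:**
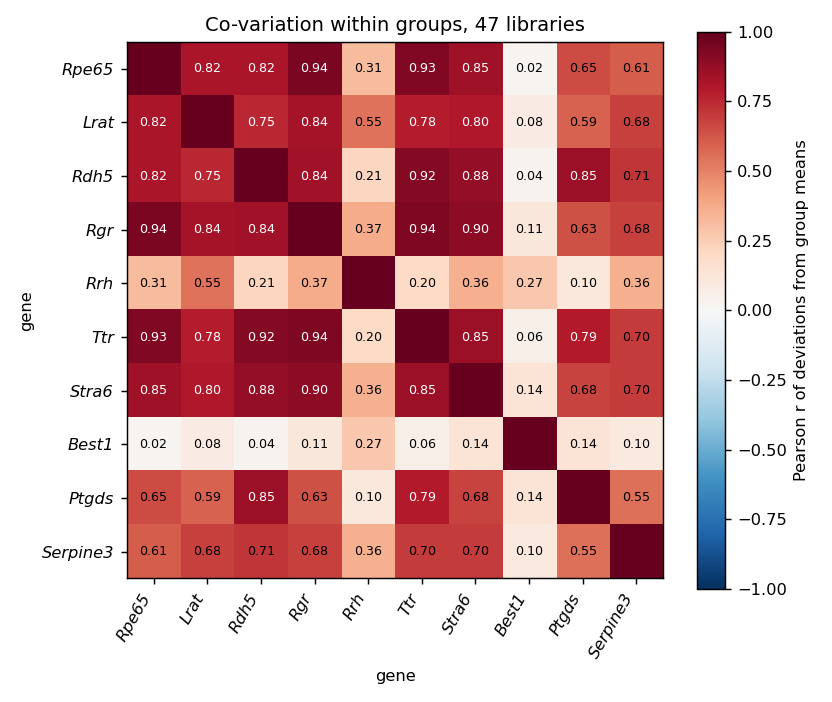
Pearson r between each pair of the 10 genes over 47 libraries, after subtracting the mean log2 level of the library's age and time; red is positive. The 8 genes other than Rrh and Best1 form a block of 0.55 to 0.94, while the row of Best1 stays at or under 0.27.

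The ratio of Rgr to Rpe65 shows how closely some members kept step in the dark. In aged dark libraries the ratio stayed between 1.61 and 2.23 (median 2.09), although Rpe65 itself ran from 3.18 to 23.4 RPKM, and in young dark libraries it was 1.56 to 2.68 (median 2.00). Ttr was 4.65 to 6.69 times Rpe65 in aged dark and 4.59 to 8.68 times in young dark libraries. In the light both ratios ran wider. Rgr was then 1.75 to 5.52 times Rpe65 in aged and 1.61 to 3.16 times in young libraries. Ttr in the light was 3.76 to 18.4 times Rpe65 in aged and 4.84 to 14.1 times in young libraries. Rpe65 itself had few reads in the light, 24 to 355 in aged and 18 to 272 in young libraries. In the dark it had 243 to 1814 reads in aged and 107 to 852 in young libraries. The part of counting error in the wider ratios was not tested. Ratios were looser for Serpine3, at 0.102 to 0.756 in aged dark and 0.0732 to 0.542 in young dark libraries. Rrh did not keep step: its level stayed between 1.05 and 2.44 RPKM in aged and between 0.411 and 2.16 RPKM in young libraries, so its ratio to Rpe65 ran from 0.0938 to 0.586 in aged dark and from 0.168 to 1.06 in young dark libraries.

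**Figure D5:**
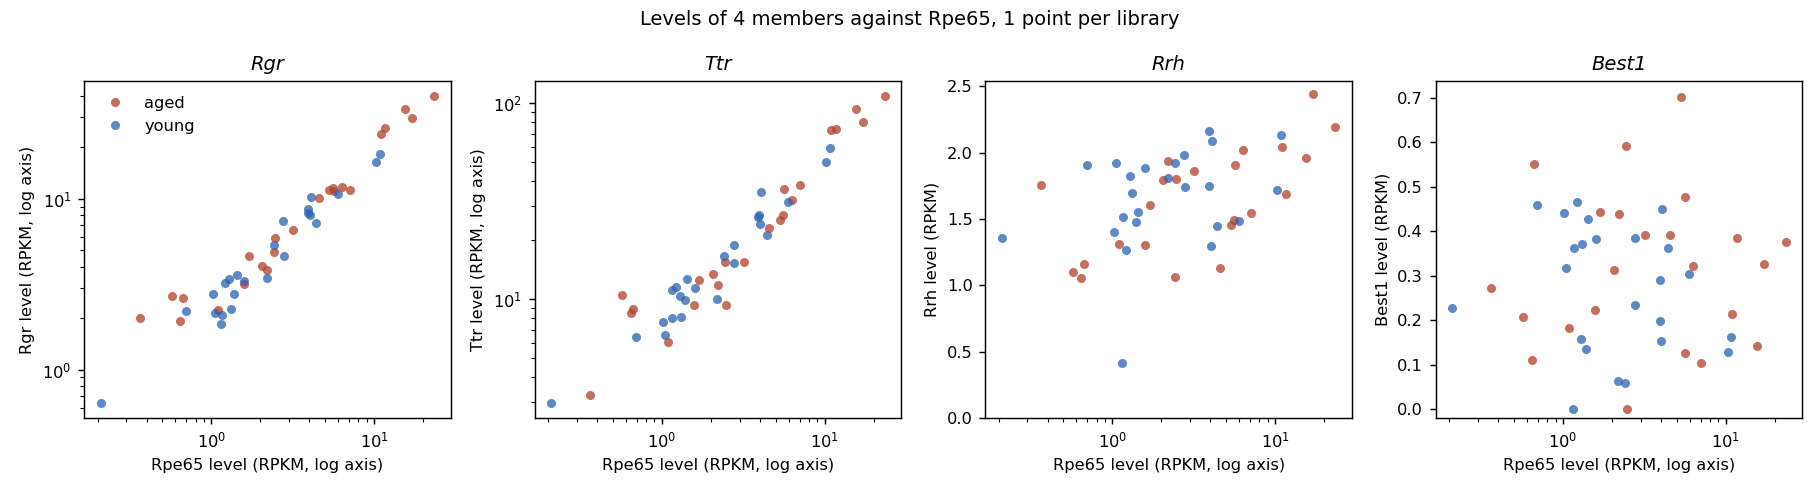
Level of Rgr, Ttr, Rrh and Best1 against Rpe65 (RPKM; log x axis, log y axis for Rgr and Ttr, linear for Rrh and Best1), 1 point per library, aged and young by colour. Rgr and Ttr rise with Rpe65 across its whole range of 0.209 to 23.4 RPKM, Rrh hardly does, and Best1 scatters between 0 and 0.702 RPKM.

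Genes outside the list that followed it most closely, over 47 libraries that share age and time of day, were ranked by Pearson r with the members' mean standardized log2 level. Col8a2, a collagen chain of basement membranes (r = 0.97), and Slc16a8, a lactate transporter of the pigment epithelium (r = 0.97), led. They were followed by Trf, the iron carrier transferrin (0.96), Slc6a20a, a proline transporter (0.96), Cpxm2 (0.95), Col8a1, the partner chain of Col8a2 (0.95), Pon1, a paraoxonase (0.94), Mfrp, a membrane protein of the pigment epithelium (0.94), Thbs1, the matrix protein thrombospondin (0.92), and Ermn (0.90). Of 12449 genes ranked 9 had r over 0.9, and the median r was 0.02. Trf averaged 47.2 RPKM in aged and 28.0 RPKM in young libraries, the others at most 2.83 RPKM in aged and 2.11 RPKM in young libraries. With group means removed, r was 0.82 to 0.94 for these 10 genes.

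Other pigment epithelium markers that are no members were set beside them. This list too was chosen with earlier results of these data known. Its counts are therefore a description, and the values for all genes beside them do not test whether the list stands out. Col8a2, Slc16a8 and Slc6a20a, named above among the genes that followed the members most closely, belong to it. Of 14 tested, 0 changed with age over all times (1 by voom, Slc6a20a), and 1, Slc6a20a, rose in the dark. At an unadjusted p under 0.05 over all times were 6 of the 14, beside 2400 of 15321 genes. The median log2 age difference of the 14 was 0.20, against -0.02 over all tested genes. Without the pair of libraries that stood apart, 5 rose over all times, Cdh3, Col8a2 and Slc6a20a among them, and 4 rose in the dark. The share of all genes passing without that pair is not given here. Of the 14, 6 were rhythmic in aged and 6 in young retinas, 5 in both, all peaking in the dark, where 14.4% of all genes were rhythmic in aged and 19.7% in young retinas. Slc16a8 swung 3.54-fold in aged and 2.52-fold in young retinas, and Col8a2 3.83-fold in aged and 2.38-fold in young retinas. Slc6a20a swung 3.19-fold in aged and 2.24-fold in young retinas, and Cdh3, a cadherin, 2.14-fold in aged and 1.89-fold in young retinas. The mean of this list followed the members at r = 0.94, that of choroid plexus genes at 0.83, melanin at 0.73 and rods at -0.27. Since these lists were chosen with earlier results known, their r is not independent of that choice.

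Retinoid genes of photoreceptors and Müller glia, the other side of the visual cycle and listed here for comparison, had small fitted swings. The lists of this paragraph were also chosen with earlier results of these data known, so their counts are a description. Of 13 tested, 0 changed with age (0 at an unadjusted p under 0.05 and 0 by voom), and the median log2 amplitude was 0.17 in aged and 0.14 in young retinas, and 1.25 in aged and 0.68 in young retinas for the 9 tested members. Rdh11, a retinol dehydrogenase, swung 1.43-fold in aged and 1.49-fold in young retinas, and Rdh8, the photoreceptor's own retinol dehydrogenase, 1.51-fold in aged and 1.24-fold in young retinas, both with a peak in the dark. Of the 13, 4 were rhythmic in aged and 5 in young retinas, where 14.4% and 19.7% of all genes were. In both ages 2 were rhythmic, beside 1158 of 15321 genes. Without the pair of libraries that stood apart, Dhrs3, a retinal reductase, rose with age, and 5 of the 13 were rhythmic in both ages. The share of all genes passing without that pair is not given here. Of 14 genes of retinoid transport and retinoic acid Rarb, a retinoic acid receptor, rose with age (0.21 ± 0.06, limma adjusted p = 0.0462), at 1.41 ± 0.28 RPKM in aged and 1.15 ± 0.21 RPKM in young libraries (SD, n = 23 and 24), and without that pair 3 rose and 1 fell. Of 5 tested prostaglandin genes, which act around PTGDS, 0 changed with age (0 at an unadjusted p under 0.05 and 0 by voom) and 0 were rhythmic at either age. Without that pair Ptges3, a prostaglandin E synthase, rose with age, and 1 of the 5 was rhythmic in aged and 3 in young retinas.

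Of the relatives of the members, such as the other bestrophins and serpins, 1 gene changed with age in all libraries. The lists of this paragraph were also chosen with earlier results of these data known. Their counts are a description and do not test whether a list stands out, and Rdh1 and Clic6 are named because they passed. Rdh1, a retinol dehydrogenase of the same family as Rdh5, rose with age by 1.27 ± 0.08 (limma, adjusted p = 2.6e-15), at 1.52 ± 0.50 RPKM in aged and 0.321 ± 0.095 RPKM in young libraries (SD, n = 23 and 24), and was rhythmic at neither age. It was the 1 of 4 tested relatives to change, and without the pair of libraries that stood apart Best3, another bestrophin, fell with age as well. Among choroid plexus genes, a tissue that shares Ttr with the pigment epithelium, 1 of 5 tested changed: Clic6, a chloride channel protein, at 3.54 ± 0.88 RPKM in aged and 1.68 ± 0.53 RPKM in young libraries (0.90 ± 0.09, adjusted p = 3.4e-10), without a rhythm at either age. Of 6 tested transcription factor genes of the pigment epithelium, Otx2 and Crx among them, 0 changed with age (0 by voom), and without that pair Otx2 rose. At an unadjusted p under 0.05 was 1 of the 6, beside 2400 of 15321 genes.

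Exons overlap for 2 members, and the strand setting of the counting is not given in the sources used here. Rdh5 shares 720 bases of exon with Bloc1s1 on the same strand, and Bloc1s1 had at most 0.713 RPKM in any library. Serpine3 shares 348 bases with Ints6 on the opposite strand, and Ints6 had 1.08 to 2.45 RPKM. Levels of Rdh5 and Serpine3 are to that extent uncertain.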

How the data were processed

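The authors deposited RPKM values with 1 column per library. Tools, per the submitters' processing notes, were HISAT2 2.2.1, Subread 2.0.6 and FastQC 0.23.4, with build GRCm39; no source used here gives the annotation release, the strand setting or filters. Per the labels, edgeR served the authors for differential expression. Here 47 libraries were used, and 1 column that matched no sample was not. Names and exon lengths came from GENCODE M21 (51884 of 57180 identifiers had a symbol). Whole reads came out within 0.01 for all 37323 genes above 0, of which 4544 needed a length chosen to give whole reads, and voom was run on these reads as an alternative.

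The test ran on log2(RPKM + 0.5) over 15321 genes that reached 0.5 RPKM in 12 or more libraries, using limma 3.58.1 (R 4.3.3; trended eBayes; Benjamini-Hochberg over all of them). Age was fitted with time as a factor, phase, single-time and interaction contrasts from 12 group means, and rhythms as a 24 h cosine. Member pairs were permuted within groups. Scripts were tested on simulated data. Named were all members, the 10 genes most like them, and per list up to 4 genes by smallest adjusted p for age and up to 4 rhythmic in both ages. The members and lists were chosen with earlier results of these data known. Libraries of a group are separate mice, per the labels.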

Additional observations from a re-analysis of the deposited data

Results flagged for a closer look

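In 8 of 110 groups of 4 libraries, 1 library lay far from the other 3, where chance does so in about 1 in 20. Rpe65 was 2.2 RPKM in aged ZT2 replicate 1, against 0.569 to 0.665 in the other libraries of that group, and Rrh was 1.94 RPKM in the same library, against 1.05 to 1.16. Lrat was 1.36 RPKM in aged ZT6 replicate 1 (others 0.832 to 0.886). Rdh5 was 1.24 RPKM in aged ZT10 replicate 2 (others 0.569 to 0.585). Ptgds was 10.5 RPKM in aged ZT2 replicate 2 (others 17.9 to 19.0). Serpine3 was 1.48 RPKM in young ZT6 replicate 4 (others 0.424 to 0.445). Rrh was 0.411 RPKM (others 1.69 to 1.92) and Best1 0 RPKM (others 0.317 to 0.382) in young ZT10 replicate 4, 1 of the 2 libraries that stood apart.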

How the results depend on the processing

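Counts of members with an age difference leave out Rgr, which was chosen for it. The other members were chosen with a daily swing or age difference known, so these counts are not independent of that choice. Over all times 1 of 8 passed, against 0 with a pseudocount of 0.1, without the filter or with a lens covariate, 2 with array weights, with the melanin covariate or by voom, 4 without both libraries that stand apart, and 0 to 2 leaving out 1 library. In the dark 3 of 8 passed, against 0 with a pseudocount of 0.1 or without the filter, 7 with array weights, 5 without both libraries that stand apart, 1 by voom, and 0 to 5 leaving out 1 library. For the dark minus light change between ages 0 passed, and 2 with array weights. The cause of these changes was not tested. Replicate numbers did not pair the libraries: same-numbered libraries of different groups correlated at a median of 0.03 (253 pairs, 90 over 0.1), and 17 of 47 were closest to their own number. With the replicate block, Rpe65 in the dark was 1.05 and no member's call changed. The median correlation of member pairs was 0.62 to 0.71 over its 5 alternatives. Serpine3, at 4 to 666 reads, and Best1, at 0 to 64, are limited by depth.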
